A study of Mus musculus with 23 samples.

Results

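The comparison described here set cerebellum against hippocampus in wild type mice, with 3 small RNA libraries from each region, 6 of the 23 libraries of the series. Its members are all miRNA names of the deposited count tables, of which 624 of 1915 had enough counts to be tested. All mice were C57BL/6, the wild type genotype is the one without the Cdr1as deletion that the series studies, and each region was dissected before total RNA was extracted. The labels used here give no age or treatment, and do not say whether the libraries came from separate animals, so p-values measure the spread between these libraries, which may be technical. The same regions from Cdr1as knockout mice (3 cerebellum and 2 hippocampus libraries, same strain) served as libraries the wild type comparison did not use. Cdr1as is a circular RNA of neurons that carries many binding sites for miR-7 and a site for miR-671. For each miRNA the comparison asked how its level differed between the 2 regions, and for miRNAs of the choroid plexus also how much the 3 libraries of a region differed from each other.

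A miRNA is cut from a hairpin precursor, and either arm of the hairpin (5p or 3p) can be loaded into an Argonaute protein. Bases 2 to 8 of the mature strand, the seed, pair with target messenger RNAs, so miRNAs with the same seed share many predicted targets. Many miRNA genes sit in introns of protein-coding genes or in clusters that are transcribed together, and a mature strand can come from more than 1 locus. The cerebellum is dominated by small granule neurons and holds Purkinje cells, and the hippocampus is built from pyramidal neurons and the granule neurons of the dentate gyrus. Both lie against a ventricle that contains choroid plexus, the folded ciliated epithelium that makes cerebrospinal fluid. Choroid plexus cells transcribe the serotonin receptor gene Htr2c and the channel gene Trpm3 strongly, and each of these genes carries miRNAs in its introns.

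The mature strands on which the results turn are printed from RefSeq (GRCm38.p6), 5′ to 3′, with the seed in capitals. The first set holds strands higher in cerebellum, and shows that miR-195a-5p, miR-497a-5p and miR-16-5p share a seed, as do miR-10a-5p and miR-10b-5p.
miR-217-5p: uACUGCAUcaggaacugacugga
miR-216a-5p: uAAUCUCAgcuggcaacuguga
miR-195a-5p: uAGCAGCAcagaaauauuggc
miR-497a-5p: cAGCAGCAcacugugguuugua
miR-16-5p: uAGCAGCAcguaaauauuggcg
miR-10a-5p: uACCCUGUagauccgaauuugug
miR-10b-5p: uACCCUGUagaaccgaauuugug
miR-133b-3p: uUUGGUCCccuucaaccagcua

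The second set holds strands higher in hippocampus. miR-132-3p and miR-212-3p share a seed, and miR-344d-3p is printed beside miR-344-3p, a family member with another seed that differed in the opposite direction.
miR-7080-3p: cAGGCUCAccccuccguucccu
miR-551b-3p: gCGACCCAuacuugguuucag
miR-137-3p: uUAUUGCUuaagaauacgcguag
miR-138-5p: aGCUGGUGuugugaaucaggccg
miR-132-3p: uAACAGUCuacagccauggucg
miR-212-3p: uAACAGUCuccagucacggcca
miR-344d-3p: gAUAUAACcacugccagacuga
miR-344-3p: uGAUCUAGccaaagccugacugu

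The third set holds the strands of the miR-7 genes, which show which strand can be assigned to a locus. miR-7a-5p is made by 2 loci, and each of these loci has a 3p strand of its own sequence.
miR-7a-5p: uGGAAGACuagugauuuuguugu
miR-7b-5p: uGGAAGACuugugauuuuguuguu
miR-7a-1-3p: cAACAAAUcacagucugccaua
miR-7a-2-3p: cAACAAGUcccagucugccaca

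The last set holds strands of the choroid plexus and ciliated epithelium list, which other regions of the series also contain. miR-204-5p and miR-211-5p share a seed, and so do miR-34b-5p, miR-449a-5p and miR-449c-5p, whereas the strands from Htr2c introns each have their own.
miR-204-5p: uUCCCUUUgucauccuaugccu
miR-211-5p: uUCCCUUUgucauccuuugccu
miR-34b-5p: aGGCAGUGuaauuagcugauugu
miR-449a-5p: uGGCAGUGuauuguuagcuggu
miR-449c-5p: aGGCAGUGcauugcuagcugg
miR-1298-5p: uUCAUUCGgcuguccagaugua
miR-1298-3p: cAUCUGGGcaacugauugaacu
miR-448-3p: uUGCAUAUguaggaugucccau
miR-764-3p: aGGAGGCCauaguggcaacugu

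Of 624 miRNAs tested, 113 (18.1%) were higher in cerebellum and 93 (14.9%) were lower, which made 206 or 33% called in all. Called means a Benjamini-Hochberg adjusted p under 0.05 in edgeR's quasi-likelihood F test on raw counts and a difference of at least 2-fold. At any size of difference, 381 (61.1%) passed the adjusted p, and for 423 (67.8%) the 3 libraries of one region did not overlap the 3 of the other. A strand near absent from 1 region passed the filter on low counts through the other region alone, which fixed its direction. Levels are in CPM, read counts scaled to a common library size with edgeR's TMM factors, and every difference is a log2 difference, cerebellum over hippocampus. In bulk tissue, fewer cells of a type and less RNA per cell cannot be told apart. Adapters ligate to different miRNAs with different efficiency, so differences were tested between libraries, and an order or ratio of different miRNAs is one of read counts, not of molecules. Values are listed in the order of the libraries WT 1, WT 2 and WT 3, and where a pair of such sets is given cerebellum comes first.

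The libraries held 7217821 to 11046151 counts, with 949 to 1049 miRNAs detected in each. In every library miR-181a-5p took the largest share, 24.6% to 27.5% of cerebellum counts and 16.1% to 18.8% of hippocampus counts. The TMM factors stood apart by region, 0.705 to 0.828 in cerebellum and 1.27 to 1.34 in hippocampus, and centred the median log2 difference of all tested miRNAs at -0.01. With library size alone the median moved to -0.77, and 37 miRNAs were called higher and 226 lower. The differences are therefore relative to the typical miRNA, and a small one depends on that centring. Neuron-enriched miRNAs were abundant in all 6 libraries (41.1% to 42.9% of cerebellum counts, 33.4% to 34.4% of hippocampus counts). No miRNA that defines either region was among the lists, so the region labels were not tested.

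**Figure D1:**
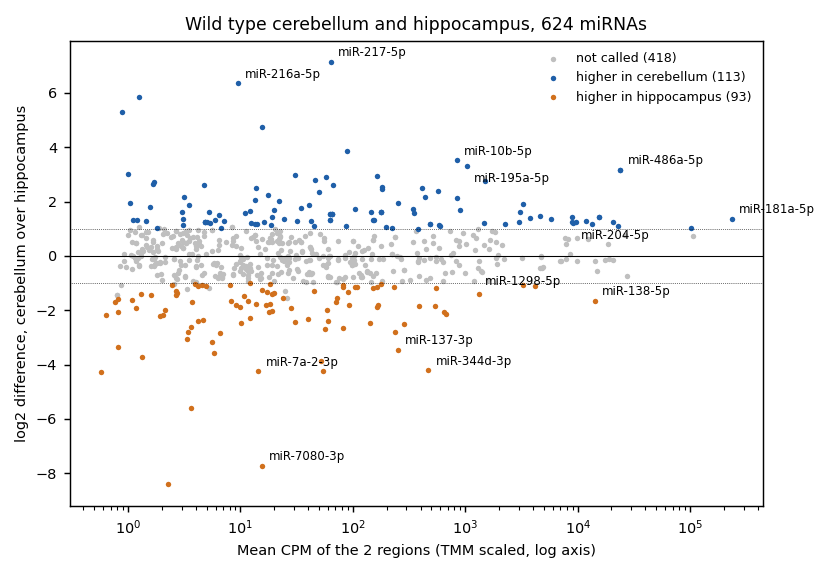
Each point is a tested miRNA, with its mean CPM over the 2 regions on a log axis and its log2 difference, cerebellum over hippocampus, on the other. Dotted lines mark 2-fold. The 113 miRNAs called higher and the 93 called lower include miR-217-5p at 7.14, miR-7080-3p at a fitted -7.72 that rests on 3 counts in cerebellum, and the abundant miR-181a-5p at 1.37.

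The miRNAs with the largest excess in cerebellum came from a cluster on chromosome 11 in an intron of the long noncoding gene Gm12082. miR-217-5p had 112, 130.5 and 135 CPM in the cerebellum libraries and 0.762, 0.817 and 1.04 CPM in the hippocampus libraries. Its log2 difference was 7.14 (SE 0.17), or 141-fold (adjusted p = 1.88e-07). miR-216a-5p of the same cluster had 19.7, 18.5 and 17.8 CPM in cerebellum and 0.327, 0.245 and 0.0863 CPM in hippocampus, a log2 difference of 6.37 (SE 0.29). Both were near the detection limit in every hippocampus library and well above it in every cerebellum library. A further member, miR-216b-5p (named after its values were seen), had 57 counts in cerebellum and 1 in hippocampus, a ratio of 83.1-fold (95% counting interval 14.3 to 3341).

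The miRNAs embedded in Hox gene clusters, which pattern the hindbrain and spinal cord, were called higher in cerebellum in 3 of the 3 members tested. Over all tested 18.1% were called higher. The median log2 difference of the 3 was 3.53 beside -0.01 over all tested. miR-10b-5p, in an intron of Hoxd3 on chromosome 2, had 1446, 1271 and 1918 CPM in cerebellum and 76.2, 129 and 195.3 CPM in hippocampus (11.6-fold, adjusted p = 7.8e-05). miR-10a-5p, which shares its seed, had 293, 240.5 and 383 CPM and 46.8, 56.3 and 61.3 CPM, a 5.57-fold difference. Neither strand overlapped between regions. miR-615-3p, in an intron of Hoxc5, had 39 counts in cerebellum and 1 in hippocampus, a ratio of 56.9-fold (95% counting interval 9.63 to 2304). It passed the filter on low counts only through cerebellum, so its direction adds nothing to that of miR-10a-5p and miR-10b-5p. The fit of all 12 wild type libraries tested 2 members, both higher (median log2 difference 3.03). The other 8 strands of the list, miR-196a and miR-196b among them, had 0 to 6 counts in the 6 libraries together and were not tested.

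All 4 strands of the miR-195a and miR-497a cluster on chromosome 11 were higher in cerebellum. miR-195a-5p had 1744, 1996 and 1923 CPM in cerebellum and 177, 187 and 207 CPM in hippocampus, a 9.93-fold difference (log2 3.31, SE 0.11, adjusted p = 8.78e-07). miR-497a-5p had 2832, 2893 and 2123 CPM and 431, 363 and 366 CPM, and the rarer miR-497a-3p had 27.4, 36 and 27.1 CPM and 0.762, 1.06 and 1.47 CPM. Every cerebellum library exceeded every hippocampus library for each strand. miR-16-5p, the abundant miRNA of the same family and a regulator of cell cycle genes, had 16308, 17086 and 17323 CPM in cerebellum and 7210.1, 6691 and 6680.4 CPM in hippocampus (2.46-fold, adjusted p = 9e-06). In the family as a whole, 6 of 11 tested strands were called higher and none lower, beside 18.1% and 14.9% of all tested. The median log2 difference was 1.03, which was 0.26 with library size alone, where 4 were called.

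Other strands with a large excess in cerebellum were miR-133b-3p, miR-486 and miR-34a-5p. miR-133b-3p, a miRNA of muscle that is also studied in midbrain neurons, had 157, 167 and 175 CPM in cerebellum and 10.4, 10.6 and 13.2 CPM in hippocampus (14.5-fold, adjusted p = 8.78e-07). miR-34a-5p, whose gene is activated by p53, had 277, 279 and 320.4 CPM and 36, 32.8 and 46.3 CPM (7.61-fold). miR-700-5p, in an exon of Rcan3 on chromosome 4, had 77.3, 78.3 and 86.6 CPM and 8.81, 11.3 and 15 CPM (6.87-fold). For miR-133b-3p, miR-34a-5p and miR-700-5p the lowest cerebellum library was far above the highest hippocampus library.

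Among called strands with at least 10 CPM in hippocampus, the largest deficit in cerebellum belonged to miR-7080-3p, in an exon of the copine gene Cpne7 on chromosome 8. It had 1 count in each cerebellum library and 30.5, 34.8 and 27.2 CPM in the hippocampus libraries, a ratio of 233-fold (95% counting interval 79.6 to 1133) in favour of hippocampus. The opposite strand, miR-7080-5p (named after its values were seen), had 0 counts in cerebellum and 155 in hippocampus, which is at least 35.4-fold higher against a floor of 3 counts over the region. These intervals and floors cover counting error only. Cpne7 transcripts themselves were not measured here.

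Among abundant strands lower in cerebellum, miR-137-3p, a miRNA of neuronal maturation and synapses, had 57.2, 37.6 and 30.7 CPM in cerebellum and 445, 484 and 445 CPM in hippocampus. The difference was 11-fold (log2 -3.46, SE 0.23, adjusted p = 1.25e-05). miR-551b-3p, in an intron of Egfem1 on chromosome 3, had 7.47, 4.42 and 4.81 CPM and 104, 109 and 96 CPM (18.6-fold). miR-344d-3p, made by 3 precursors on chromosome 7, had 66.8, 37.7 and 40.5 CPM and 943, 942 and 791 CPM (18.5-fold). The lowest hippocampus library was above the highest cerebellum library for each of them, which the rule for the 12 largest differences required. miR-3085-3p had 8.84, 6.87 and 4.41 CPM in cerebellum and 93.8, 98.7 and 97 CPM in hippocampus, and miR-139-5p had 68.2, 54.8 and 54.2 CPM and 389, 419.7 and 430.4 CPM (6.996-fold, adjusted p = 2.63e-06). The rest of the 12 largest were miR-7a-2-3p, miR-7220-5p, miR-493-5p, miR-5129-3p in an exon of Zeb2, miR-3475-3p and miR-128-1-5p, with log2 differences from -4.23 to -2.64. miR-3475-3p was the least even of them, with 26.7, 10.9 and 7.88 CPM in the cerebellum libraries.

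**Figure D2:**
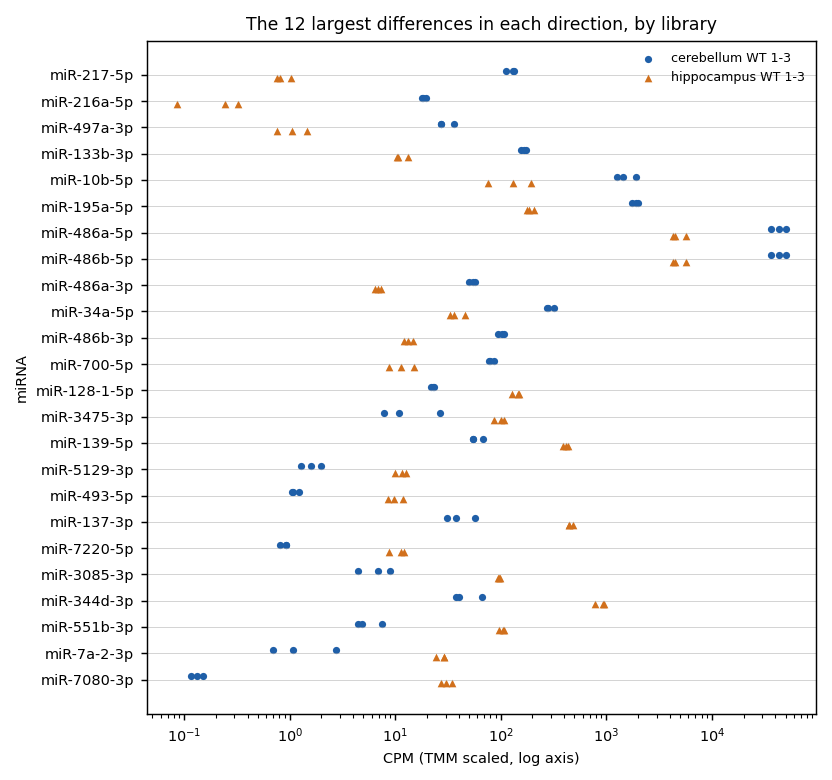
CPM in each wild type library (log axis) for the 12 largest called differences in each direction among miRNAs with at least 10 CPM in the higher region. Circles are the 3 cerebellum libraries and triangles the 3 hippocampus libraries. The regions do not overlap for any miRNA shown, which the choice of these miRNAs required, and miR-486a-5p and miR-486b-5p have the same counts.

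The most abundant miRNAs were shared between the regions but not in equal amounts. miR-181a-5p had 307397, 315802 and 389629 CPM in cerebellum and 126235, 125776 and 139990.1 CPM in hippocampus (2.58-fold, adjusted p = 3.5e-05). miR-26a-5p had 116628, 141625 and 148516 CPM and 72788, 65797 and 61853 CPM, a 2.03-fold difference. miR-9-5p, a regulator of neural progenitors, had 125211, 138290.1 and 136392 CPM and 83746, 88475 and 69535 CPM and stayed under 2-fold (1.65-fold). These were the most abundant 3 of both regions, and all were higher in every cerebellum library on the TMM scale. The log2 difference of miR-9-5p was -0.03 with library size alone. The sizes of the other 2 also depend on the scaling. As a share of counts, miR-181a-5p took 24.6% to 27.5% in cerebellum and 16.1% to 18.8% in hippocampus, less than 2-fold apart. miR-26a-5p, at 2.03-fold, lay on the 2-fold line. In hippocampus the next places after these 3 went to miR-22-3p, miR-434-3p, miR-138-5p, miR-143-3p and let-7f-5p. In cerebellum they went to miR-486a-5p, miR-486b-5p, let-7f-5p, miR-30a-5p and miR-124-3p. miR-22-3p was the reverse of miR-9-5p, with 19123, 20875 and 20815 CPM in cerebellum and 37100.2, 32012 and 33499 CPM in hippocampus (1.69-fold, under the 2-fold line).

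Neuron-enriched miRNAs differed in both directions. Of 19 tested strands, 7 were called higher in cerebellum and 3 lower, beside 18.1% and 14.9% of all tested. The median log2 difference was 0.73. It was -0.03 with library size alone, where 1 was called higher and 5 lower. miR-124-3p, the most specific miRNA of neurons, had 25615, 28172 and 32814 CPM in cerebellum and 12258, 11891 and 12619 CPM in hippocampus (2.36-fold, adjusted p = 3.99e-05). miR-129-1-3p had 271, 325 and 334 CPM and 36.9, 59.9 and 62.6 CPM (5.83-fold). The 3 lower strands were miR-137-3p, miR-137-5p and miR-128-1-5p. miR-137-5p had 4 counts in cerebellum and 82 in hippocampus. It passed the filter on low counts only through hippocampus, so its direction adds nothing to that of miR-137-3p. miR-128-3p, which limits neuronal excitability, was lower by less than 2-fold, with 12373, 12228 and 11613 CPM and 20601, 17233 and 15849 CPM.

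The let-7 family, which is known for blocking proliferation genes such as Lin28 and Hmga2, had 5 of 21 strands called higher and none lower. Over all tested miRNAs 18.1% were called higher. Among the strands that were not called, let-7a-1-3p and let-7c-2-3p have the same counts and stand for 1 measurement. The median log2 difference was 0.70 and became -0.06 with library size alone, where none was called higher and 2 lower. let-7a-5p had 16317, 19253 and 20791 CPM in cerebellum and 8494, 8829 and 7362 CPM in hippocampus (2.28-fold, adjusted p = 8.9e-05). let-7g-5p had 7065, 8625 and 9621 CPM and 3355, 3456 and 2939 CPM (2.6-fold). let-7f-5p and let-7c-5p, the most abundant members, stayed under 2-fold (1.71-fold and 1.34-fold).

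miRNAs of synapses and of activity-regulated transcription were lower in cerebellum. Of 14 tested strands 8 were called lower and none higher, with a median log2 difference of -1.10 (14.9% of all tested were called lower). The count was 13 with library size alone, where the median was -1.86, and 5 in a test against 2-fold. miR-138-5p, which acts at dendritic spines, had 8061, 6893 and 5674 CPM in cerebellum and 25030.3, 20662 and 19318 CPM in hippocampus (3.15-fold, adjusted p = 5.99e-05). miR-218-5p, from introns of Slit2 and Slit3, had 2379, 2412 and 3109 CPM and 5745, 5640.2 and 5826 CPM (2.18-fold). miR-212-3p, which is induced by the transcription factor CREB, had 83, 70.2 and 70.7 CPM and 292, 254 and 239 CPM (3.51-fold). The regions did not overlap for these 3. miR-132-3p from the same transcript had 919.7, 799 and 747 CPM and 1798, 1521 and 1392 CPM, which passed the adjusted p (0.000521) at 1.91-fold and so was not called.

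The miR-344 family of rodents, clustered on chromosome 7, was split. Of 6 tested strands, 4 were called lower in cerebellum and 1 higher, beside 14.9% and 18.1% of all tested. The 1 called higher was miR-344-3p, at 476, 508 and 542 CPM in cerebellum and 229, 262 and 268 CPM in hippocampus. That call, at 2.01-fold, sat on the 2-fold line and was absent with DESeq2's size factors, with upper quartile factors, without the filter on low counts and with library size alone (log2 0.24). miR-344c-3p, which shares a seed with miR-344-3p, had 3.51, 4.19 and 4.41 CPM and 13.8, 14.7 and 13.7 CPM (3.47-fold lower). miR-344d-3-5p had 3 counts in cerebellum and 230 in hippocampus, a ratio of 52.6-fold (95% counting interval 17.8 to 257). It passed the filter on low counts only through hippocampus, so its direction adds nothing to that of the other strands called lower. miR-344b-3p was lower at 1.79-fold and was not called.

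The large imprinted Dlk1-Dio3 cluster on chromosome 12, whose miRNAs are transcribed from the maternal chromosome, had 85 tested strands. Of these, 18 were called lower in cerebellum and none higher, with a median log2 difference of -0.61, beside 14.9% called lower over all tested. With library size alone 60 were called lower and the median was -1.36, and DESeq2 and limma-voom each called 2 higher and 19 lower. miR-409-3p had 227, 214 and 259 CPM in cerebellum and 902, 841 and 753 CPM in hippocampus (3.57-fold, adjusted p = 1.1e-05). miR-412-5p had 5.18, 5.7 and 8.02 CPM and 24.1, 20.8 and 19.3 CPM (3.38-fold), and miR-493-5p had 1.22, 1.05 and 1.07 CPM and 11.8, 9.72 and 8.54 CPM (8.93-fold). The cluster was not even: its abundant members miR-434-3p, miR-127-3p and miR-411-5p had log2 differences of -0.17, -0.14 and -0.20. miR-381-3p lay on the other side, at 9400.3, 10030.3 and 10289 CPM and 5958, 7284 and 6185 CPM (1.53-fold higher, under the 2-fold line), and was lower by 0.15 on the log2 scale with library size alone.

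The miR-183 cluster, known from sensory cells, and the miR-200 family, known from epithelial cells, were tested together in a list of 7 strands. In it 3 were called higher in cerebellum and 3 lower, beside 18.1% and 14.9% of all tested. The 3 tested strands of the miR-183 cluster on chromosome 6 were higher in cerebellum. miR-182-5p had 922, 1052 and 891 CPM there and 255, 134 and 160.3 CPM in hippocampus (5.22-fold, adjusted p = 7.9e-05), and miR-183-5p had 55.2, 71.2 and 64.3 CPM and 22.1, 11.4 and 19 CPM. The 3 called strands of the miR-200 family, from an intron of Ttll10 on chromosome 4, were lower: miR-429-3p had 3.66, 13.6 and 3.07 CPM in cerebellum and 28.1, 23.4 and 35.4 CPM in hippocampus (4.17-fold, adjusted p = 0.0085). miR-200a-3p and miR-200b-3p were lower by 3.14-fold and 3.69-fold. The second cerebellum library was the highest of its region for each of these 3, and the regions still did not overlap. None of the 3 passed a test against 2-fold, and the call of miR-200a-3p was lost on leaving out any 1 library other than cerebellum WT 2. The other tested member, miR-141-3p (named after its values were seen), had 2.13, 8.15 and 3.21 CPM and 2.29, 3.19 and 5.01 CPM (log2 0.38, adjusted p = 0.544).

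Markers of other cells were read beside these groups. Endothelial and mural miRNAs, such as miR-126a-3p and miR-143-3p, gave 0 calls among 6 tested strands, with log2 differences between -0.11 and 0.17 and overlapping regions in all 6. Oligodendrocyte miRNAs gave 0 calls among 5, with log2 differences from 0.26 to 0.58. miR-219a-5p had 186, 189 and 170.3 CPM in cerebellum and 124, 108 and 134 CPM in hippocampus. Microglia and leukocyte miRNAs gave 0 calls among 6, with log2 differences from -0.79 for miR-142a-5p to 0.78 for miR-155-5p. miR-142a-5p had 75.8, 104 and 87.6 CPM and 129, 171 and 162 CPM, and miR-155-5p (named after its values were seen) 3.51, 5.59 and 3.47 CPM and 2.5, 2.29 and 2.59 CPM. Strands of the miR-17 to miR-92a clusters, which mark proliferating cells, gave 1 call among 15, miR-92a-1-5p, which was lower. Over all tested miRNAs 33% were called.

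Red blood cell miRNAs were uneven. miR-486a-5p, whose gene lies within the ankyrin gene Ank1, had 36145, 43108 and 50508 CPM in cerebellum and 4289, 5687 and 4448 CPM in hippocampus (8.995-fold, adjusted p = 4.48e-06). miR-486b-5p had the same count in all 23 libraries, so these 2 names stand for 1 measurement. The 3p strands miR-486a-3p and miR-486b-3p were higher by 7.82-fold and 7.55-fold. miR-451a, the defining miRNA of red blood cells, had 184, 206 and 190.1 CPM and 82.3, 147 and 122 CPM, a 1.65-fold difference that was under 2-fold and was absent with library size alone (log2 -0.04). Only the miR-486 strands among the 7 tested were called, all higher, beside 18.1% of all tested. The part of blood in them was not tested.

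Of the muscle list, miR-133a-3p and miR-133b-3p were called higher in cerebellum and miR-208b-3p lower, among 4 tested. Over all tested 18.1% were called higher and 14.9% lower. miR-133a-3p had 419, 388 and 396 CPM in cerebellum and 95.1, 108 and 111 CPM in hippocampus (3.83-fold). The defining muscle strands miR-1a-3p and miR-206-3p, which are transcribed with the miR-133 genes, had 6 and 5 counts in the 6 libraries together.

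The miRNAs tied to Cdr1as were mostly lower in cerebellum: 4 of 7 tested strands were called lower and 1 higher. Over all tested 14.9% were called lower and 18.1% higher. miR-7a-5p had 43.6, 35.4 and 44.1 CPM in cerebellum and 133, 171 and 127 CPM in hippocampus (3.51-fold lower, adjusted p = 3.57e-05). miR-7b-5p, from chromosome 17 and with the same seed, had 7.32, 8.61 and 6.55 CPM and 26.2, 38.4 and 27.7 CPM (4.1-fold lower). miR-671-5p, which directs the slicing of Cdr1as, had 13, 12.1 and 11.1 CPM and 28.9, 24.3 and 21.4 CPM (2.06-fold lower, adjusted p = 0.000646). The regions did not overlap for any of these. The call of miR-671-5p lay at the 2-fold line and was lost without cerebellum WT 3 (log2 -0.94) and without hippocampus WT 1 (log2 -0.86). The partner strands miR-671-3p (log2 -0.24) and miR-7b-3p (log2 0.32) did not pass.

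The 3p strands of the 2 loci that make miR-7a-5p differed in opposite directions. miR-7a-1-3p, from an intron of Hnrnpk on chromosome 13, was higher in cerebellum, with 57.9, 59.7 and 67.5 CPM there and 25.6, 30.5 and 29.4 CPM in hippocampus (log2 1.11, SE 0.12, adjusted p = 0.0001). miR-7a-2-3p, from chromosome 7, was lower, with 2.74, 0.698 and 1.07 CPM and 24.3, 29 and 28.7 CPM (log2 -4.23, SE 0.37, adjusted p = 3.93e-05). Counts of the first strand over the second were 21.1, 85.5 and 63.1 in the cerebellum libraries and 1.05, 1.05 and 1.02 in the hippocampus libraries. The hippocampus libraries had the 2 strands in nearly equal counts, and each cerebellum library had many more of the Hnrnpk strand. The excess of miR-7a-1-3p did not reach 2-fold with library size alone, without the filter on low counts, or in the knockouts.

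Other paralogous genes also have strands of their own (miR-218-2-3p, miR-138-1-3p and miR-138-2-3p are named after their values were seen). miR-218-1-3p from Slit2 had 1.37, 0.815 and 0.401 CPM in cerebellum and 5.77, 6.29 and 5.95 CPM in hippocampus (7.01-fold lower). miR-218-2-3p from Slit3 had 5.79, 5.24 and 4.54 CPM and 10.1, 11.8 and 10.6 CPM (2.09-fold lower). miR-138-1-3p and miR-138-2-3p were lower by 2.9-fold and 1.55-fold, the second not called. miR-128-1-5p from R3hdm1 was lower by 6.22-fold, while miR-128-3p, made also from Arpp21, was lower by 1.48-fold. The difference between paralogous strands was not tested.

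**Figure D3:**
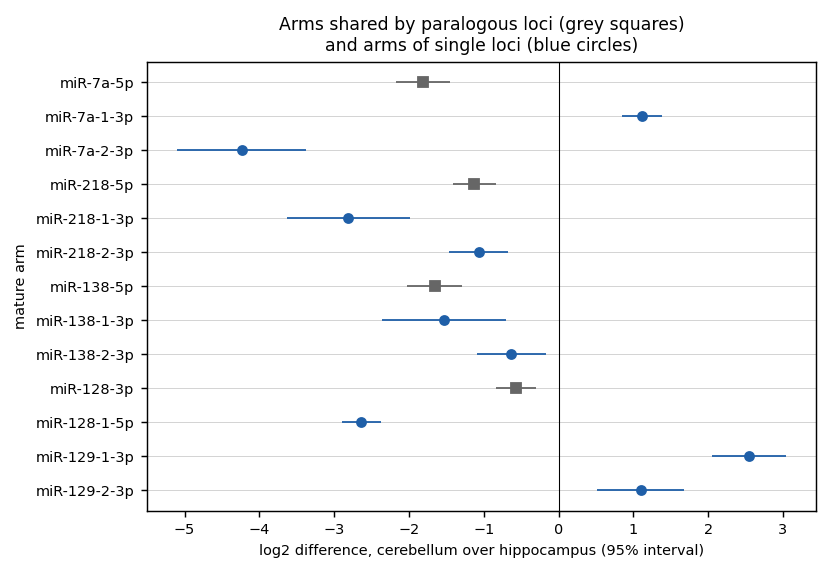
log2 difference, cerebellum over hippocampus, with its 95% interval over 3 libraries a region. Grey squares are mature strands that several loci share, and blue circles are strands of a single locus. The miR-7a-1 and miR-7a-2 strands lie on opposite sides of 0, at 1.11 and -4.23, with the shared miR-7a-5p at -1.81 between them.

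Strands from the same precursor, or from precursors with gaps of at most 10 kb, had calls in 1 direction wherever more than 1 was called. Only strands with a single precursor in the sequence annotation entered. let-7a-5p entered under its chromosome 13 locus alone, in a cluster of 2 calls, although let-7a-2-3p comes from another locus on chromosome 9. let-7a-1-3p and let-7c-2-3p, which have the same counts, entered different clusters. Longer distances were not examined. miR-344-3p and miR-344c-3p were called in opposite directions, and each has a precursor in an intron of the noncoding gene A230057D06Rik. miR-344-3p has another precursor in an intron of A330076H08Rik, so its reads cannot be assigned to a locus. Of 35 such clusters of precursors with tested strands, 18 held at least 1 call, 13 of them held 2 or more calls, and in all 13 the calls had 1 direction. Of 139 precursors with both strands tested, 24 had both called, in the same direction in all 24, and 25 had 1 strand called. The X-linked miR-221 and miR-222 pair (named after its values were seen) was an abundant example: miR-221-3p had 227, 239.9 and 277 CPM in cerebellum and 1131, 1127 and 1005 CPM in hippocampus, and miR-222-3p had 256, 237 and 248 CPM and 1078, 1184 and 850.1 CPM. These strands, which repress the cell cycle inhibitor p27, were lower in cerebellum by 4.39-fold and 4.2-fold.

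Counts were also summed over miRNAs with the same seed, for the 1623 of 1915 names with a RefSeq mature sequence, which held 85.97% to 91.97% of each library's counts. Of 442 seed families tested, 63 (14.3%) were higher in cerebellum and 74 (16.7%) lower, which made 31% called. The largest families by size of difference had a single tested member (miR-217-5p, miR-216a-5p, miR-7080-3p and others already described). Among the 52 families of 2 or more tested members, 9 were higher and 8 lower. The seed AGCAGCA of miR-15, miR-16, miR-195 and miR-497 summed to 21407, 22515 and 21909 CPM in cerebellum and 8146, 7552 and 7611 CPM in hippocampus (2.82-fold higher, adjusted p = 3.81e-06). Of its 6 tested members 3 were called higher and 1, miR-322-5p, lower. The seed ACCCUGU of miR-10a and miR-10b summed to 1738, 1512 and 2301 CPM and 123, 186 and 257 CPM (9.82-fold higher). The seed GGAAGAC of miR-7a and miR-7b summed to 50.9, 44 and 50.6 CPM and 159.6, 209 and 155 CPM (3.6-fold lower, adjusted p = 3.14e-05). The seed AACAGUC of miR-132 and miR-212 summed to 1003, 869.5 and 817 CPM and 2090.2, 1775 and 1630.4 CPM (2.04-fold lower). These multi-member families were chosen after their values were seen.

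The same region contrast in Cdr1as knockout mice gave 112 miRNAs higher and 108 lower of 645 tested (34.1% called), from libraries the wild type comparison did not use. Of the 206 wild type calls, 205 were tested in the knockouts, 165 were called in the same direction and none in the opposite direction. That is 80.1% of the wild type calls and 75% of the 220 knockout calls. All 205 had the same sign, which for strands near absent from 1 region the filter on low counts had fixed. The share with the same sign over all 618 miRNAs tested in both genotypes was not counted. For miR-217-5p the knockout log2 difference was 6.84 beside 7.14 in wild type, for miR-137-3p -3.62 beside -3.46, and for miR-7a-2-3p -4.22 beside -4.23. For miR-7a-1-3p it was 0.88 beside 1.11, which is under 2-fold, so this strand was not called in the knockouts. Of the 7 Cdr1as-linked strands, 0 were called higher and 3 lower there.

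The difference of the region contrast between genotypes was tested over the 11 libraries with edgeR's quasi-likelihood F test. None of 662 miRNAs passed an adjusted p of 0.05 (0%), 26 (3.93%) had an unadjusted p under 0.05, and DESeq2 and limma-voom also gave 0, while 4 higher and 6 lower passed without the filter on low counts. The smallest p belonged to miR-671-5p, whose contrast was -1.04 in wild type and -0.21 in knockout, a difference of -0.84 (SE 0.24, 95% interval -1.36 to -0.32, unadjusted p = 0.00432, adjusted p = 0.902). For miR-7a-5p, which Cdr1as binds, the contrast was -1.81 in wild type and -1.48 in knockout (difference -0.34, 95% interval -0.99 to 0.31). Neither strand passed after adjustment.

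Choroid plexus and ciliated epithelium miRNAs differed far more between libraries of a region than other miRNAs did. The list has 23 strands, of which 18 passed the filter on low counts, 4 had no count in the 6 libraries and 1, miR-1912-5p, had 28 counts. The spread was taken as the SD of log2 CPM over the 3 libraries of a region. Its median over the 18 strands was 0.98 in cerebellum and 0.98 in hippocampus, beside 0.18 and 0.17 over all 624 tested. The cerebellum median fell to 0.189 without cerebellum WT 3 and the hippocampus median to 0.18 without hippocampus WT 2. The median ratio of the highest to the lowest library was 4.57 in cerebellum and 3.68 in hippocampus, beside 1.28 and 1.27 over all tested. In each region, 11 of the 18 lay above the 95th percentile of all tested miRNAs. With 3 libraries a region, no test of a spread was made, and these values are a description.

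**Figure D4:**
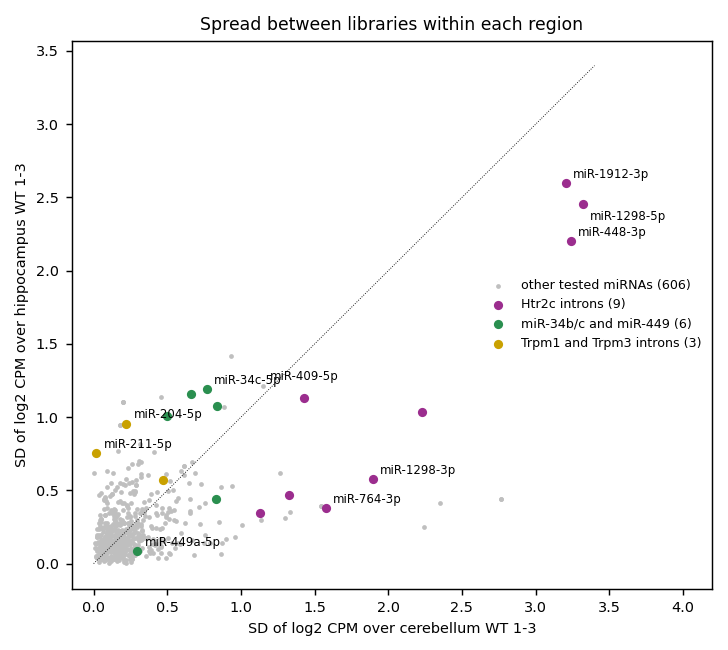
SD of log2 CPM over the 3 wild type libraries of each region, for every tested miRNA. Coloured points are the 18 choroid plexus and ciliated epithelium strands and grey points the other tested miRNAs, with the dotted line marking equal spread. The strands from Htr2c introns lie below the line and those of miR-34b, miR-34c, miR-204 and miR-211 above it, while miR-449a-5p lies among the grey points.

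The spread came from the same library for most of the list. Cerebellum WT 3 was the lowest cerebellum library for 16 of the 18 strands (32.9% of all tested miRNAs were lowest there). Hippocampus WT 2 was the lowest hippocampus library for 16 of the 18 (28.7% of all tested). The summed level of the list was 11646 CPM in cerebellum WT 3 beside 16752 and 19629 CPM in the other cerebellum libraries, and 3198 CPM in hippocampus WT 2 beside 10819 and 14016 CPM, on the scale of the 12 wild type libraries. On that scale cortex libraries had 2323 to 3267 CPM and olfactory bulb libraries 3977 to 5250 CPM. miR-204-5p made up most of this sum, with 12490.0, 15025 and 10625 CPM in cerebellum and 6182, 2193 and 7525 CPM in hippocampus. Not every strand followed the sum. miR-764-3p had 35.8, 29.6 and 35.1 CPM in cortex beside 24.7, 15.8 and 2.84 CPM in cerebellum. miR-1298-3p had 141, 134 and 137 CPM beside 145, 136 and 13.8 CPM, and miR-448-3p 39.9, 35 and 26.2 CPM beside 234, 256 and 4.65 CPM. miR-449a-5p had 23.1, 29.4 and 26.7 CPM in olfactory bulb beside 17.3, 13.7 and 19.9 CPM in cerebellum. The summed Htr2c strands, on the scale of the 6 libraries, were 1918, 2189 and 54 CPM in cerebellum and 2381, 286 and 3128 CPM in hippocampus, so that cerebellum WT 3 was the lowest of the 6 libraries in these.

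Strands from introns of Htr2c, the serotonin 2C receptor gene on the X chromosome, had the widest spread. It was wider in cerebellum than in hippocampus for 9 of 9, beside 331 of 624 over all tested. The 9 share 1 host gene and were all lowest in cerebellum WT 3, so they are not separate observations. miR-1298-5p had 1484, 1758 and 29.8 CPM in the cerebellum libraries and 1862, 115 and 2515 CPM in the hippocampus libraries, so that the highest library exceeded the lowest by 59-fold and 21.9-fold. miR-448-3p had 237, 255 and 4.81 CPM and 246, 18.1 and 268 CPM. miR-1912-3p had 9.76, 10.01 and 0 CPM and 13.1, 0.49 and 18.5 CPM. For all 3 the first and second cerebellum libraries were close to each other and the third stood far below. miR-764-3p was less uneven in hippocampus, with 25, 15.7 and 2.94 CPM in cerebellum and 37, 26 and 43.7 CPM in hippocampus, and miR-1298-3p had 147, 135 and 14.3 CPM and 199.6, 117 and 255 CPM. Over the 9 strands the SD ran from 1.13 to 3.32 in cerebellum and from 0.35 to 2.60 in hippocampus.

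None of the 9 tested Htr2c strands was called between regions. The nearest was miR-764-3p, at a log2 difference of -1.30 (SE 0.58) and an adjusted p of 0.0863, with regions that did not overlap. It was called lower in cerebellum without the filter on low counts, with limma-voom, with library size alone, without cerebellum WT 1 and in fits of all 12 or all 23 libraries. miR-764-5p was also called lower without the filter, with library size alone and in the fits of all 12 or all 23 libraries. So was miR-1298-3p without the filter. miR-1298-5p had a log2 difference of -0.46 (SE 1.30, adjusted p = 0.78). Leaving out cerebellum WT 3 or hippocampus WT 3 made its log2 difference 0.16, so its direction rested on single libraries.

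The 2 strands of the miR-1298 hairpin did not keep a fixed ratio. Counts of miR-1298-5p over miR-1298-3p were 10.1, 12.97 and 2.08 in the cerebellum libraries and 9.33, 0.982 and 9.86 in the hippocampus libraries. The libraries lowest in miR-1298-5p were therefore also the ones with the lowest ratio. In cortex WT the ratio was 2.199, 1.82 and 1.11, and in olfactory bulb WT 2.32, 1.75 and 1.5. The ratio rested on 223 and 107 counts in cerebellum WT 3 and on 1403 and 1428 counts in hippocampus WT 2.

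miR-34b and miR-34c, made from a transcript on chromosome 9 and needed with miR-449 for motile cilia, varied in both regions. They varied more in hippocampus for 4 of 4 strands, beside 293 of 624 over all tested. The 4 strands share that transcript and are not separate observations. miR-34c-5p had 2158, 2136 and 855 CPM in cerebellum and 2241, 685 and 3348 CPM in hippocampus. miR-34b-5p had 119.7, 141 and 47.8 CPM and 113, 37.7 and 157 CPM. The low libraries were the same as for the Htr2c strands, but cerebellum WT 3 kept a larger part of the level of the other libraries. Neither strand was called, with log2 differences of -0.29 (SE 0.56) and 0.00 (SE 0.54), and the regions overlapped.

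miR-449a-5p, from an intron of Cdc20b on chromosome 13, did not follow this pattern. It had 17.5, 13.6 and 20.6 CPM in cerebellum, with the third library the highest, and 7.18, 7.92 and 7.08 CPM in hippocampus, with the second the highest. Its SD was 0.30 and 0.09. It was higher in cerebellum (log2 1.22, SE 0.18, adjusted p = 0.00076). miR-449c-5p from the same intron had 3.35, 1.05 and 3.07 CPM and 0.435, 0.98 and 0.604 CPM and was also called (3.5-fold, adjusted p = 0.016), at levels near the detection limit.

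miR-204-5p and miR-211-5p, from introns of Trpm3 on chromosome 19 and Trpm1 on chromosome 7, were steady in cerebellum and uneven in hippocampus. miR-204-5p had 12654, 14953 and 11001 CPM in cerebellum and 6403, 2271 and 7794 CPM in hippocampus. miR-211-5p had 53.4, 54.5 and 53.2 CPM and 19.2, 7.84 and 20.2 CPM. Cerebellum WT 3, which was low in Htr2c strands, had nearly the same miR-211-5p as the other cerebellum libraries, while hippocampus WT 2 was low in both. The SD of miR-204-5p was 0.22 in cerebellum and 0.96 in hippocampus, and that of miR-211-5p 0.02 and 0.75. The rare partner strand miR-204-3p was less steady in cerebellum, with 5.95, 8.15 and 4.14 CPM there and 3.16, 2.04 and 4.75 CPM in hippocampus. Its SD was 0.47 and 0.57, and it was not called (log2 0.88).

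The 5p strands were both called higher in cerebellum, miR-211-5p at a log2 difference of 1.78 (SE 0.31, adjusted p = 0.0017) and miR-204-5p at 1.23 (SE 0.40, adjusted p = 0.028). The regions did not overlap for either. The call of miR-204-5p was lost without cerebellum WT 2, without hippocampus WT 2, and without both hippocampus WT 2 and cerebellum WT 3, where 2 strands of the list, miR-211-5p and miR-449a-5p, were still called and miR-449c-5p was not. With library size alone the calls of miR-204-5p, miR-449a-5p and miR-449c-5p were lost, and with the replicate number as a block those of miR-204-5p and miR-449c-5p. Over the whole list, 4 of 18 were called higher and none lower (1 and 2 with library size alone). Over all tested 18.1% were called higher and 14.9% lower. The list had a median log2 difference of -0.23 beside -0.01 over all tested. That median was 0.29 without hippocampus WT 3, 0.16 without cerebellum WT 3 and -0.64 without hippocampus WT 2.

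**Figure D5:**
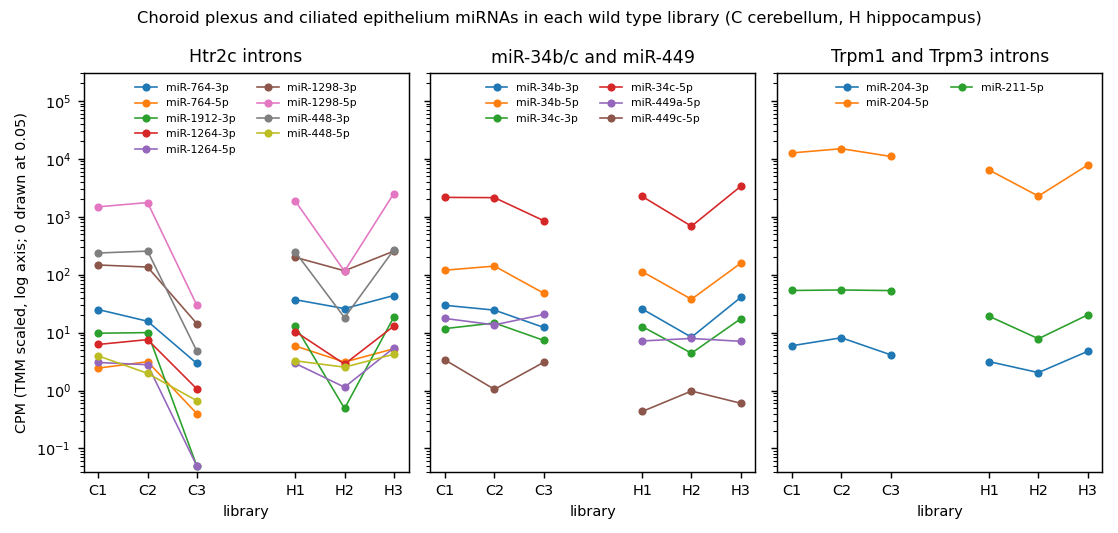
CPM of the 18 tested choroid plexus and ciliated epithelium strands in each wild type library, on a log axis, grouped by where their genes lie. C1 to C3 are cerebellum and H1 to H3 hippocampus libraries, lines only join the values of a strand, and 2 values of 0 (miR-1912-3p and miR-1264-5p in C3) are drawn at 0.05. The Htr2c strands drop in C3 and H2, miR-204-5p and miR-211-5p mainly in H2, and miR-449a-5p in neither.

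The knockout libraries showed the same strands with other spreads. On the scale of the 11 libraries, miR-1298-5p had 265, 997 and 501 CPM in the 3 knockout cerebellum libraries and 102 and 84.2 CPM in the 2 knockout hippocampus libraries. Both knockout hippocampus libraries were thus near the low wild type hippocampus library, and no knockout cerebellum library was as low as cerebellum WT 3. miR-1298-5p was called higher in cerebellum there (log2 2.62, adjusted p = 0.00308), with 7 of 18 strands of the list higher and 1, miR-764-3p, lower. Over all tested in the knockouts 17.4% were called higher and 16.7% lower. For miR-1298-5p the difference from the wild type contrast was -3.07 (SE 1.77, 95% interval -6.95 to 0.82, adjusted p = 0.902). miR-204-5p had 10079, 12546 and 10904 CPM in knockout cerebellum and 2429.7 and 2796 CPM in knockout hippocampus, and the difference of its contrast between genotypes was -0.83 (95% interval -1.92 to 0.26). How much choroid plexus each dissection contained was not measured, and its part in these levels was not tested.

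Outside the list, miR-409-5p (named for its spread, after its values were seen) had an SD of 1.15 in cerebellum and 1.21 in hippocampus. It had 26.2, 8.26 and 5.48 CPM in cerebellum and 55.8, 46.6 and 11.8 CPM in hippocampus, where the third library of each region was the lowest. Its partner strand miR-409-3p was also lowest in the third hippocampus library, by a far smaller margin, but was highest in the third cerebellum library. Leaving out the 2 libraries lowest in Htr2c strands, an alternative added after seeing the data, gave 116 miRNAs higher and 85 lower in cerebellum over all tested, and 187 of the 206 calls were among them in the same direction.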

How the data were processed

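Small RNA was sequenced from dissected mouse brain regions, with TRIzol extraction and TruSeq small RNA libraries per the labels' protocols. The authors deposited 1 table of raw read counts per library, with 1915 miRNA names in each. The submitters' processing notes name the genome build mm9. How reads were aligned, which miRNA annotation was counted and where a read matching more than 1 miRNA went is not given in the sources used here, so strands with near-identical sequence are uncertain.

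Libraries were grouped by region and genotype from the labels. Cerebellum WT and hippocampus WT were fitted alone in R 4.3.3 with edgeR 4.0.16 (TMM factors, filterByExpr at 10 counts per library and 15 in total, glmQLFit and glmQLFTest), with Benjamini-Hochberg adjustment over all miRNAs tested. The SE is the log2 difference divided by the root of F, with its sign removed. The same fit was used for the knockout contrast, for counts summed by seed, and, as an interaction over 11 libraries, for the difference between genotypes. The fit was tested on simulated counts with known changes. The spread within a region used log2 CPM with a prior count of 2. Alternatives used DESeq2 1.42.0 and limma-voom (limma 3.58.1).

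Genes and hosts of miRNAs come from the GENCODE annotation of GRCm38 by name, and mature sequences from RefSeq (GRCm38.p6), for 1623 of the 1915 names. No coordinates were carried between builds. The libraries of a region differed by far more than counting noise (chi-square per degree of freedom 72.5 to 274), so no file repeats another. The labels do not say whether same-numbered libraries of the regions came from the same animal. Same-numbered libraries had correlations of 0.18, -0.35 and -0.36 between their deviations from the region means. With 3 libraries a region, these correlations cannot decide whether the numbers pair the regions.

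Named miRNAs are the 12 largest called differences in each direction (regions not overlapping, at least 10 CPM in the higher region), all tested choroid plexus and Cdr1as-linked strands, the 8 most abundant of each region, up to 4 abundant and 4 called strands of every other list, and up to 6 called seed families in each direction. Not every strand under these rules is described above. The members and lists were chosen with earlier results of these data known.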

Additional observations from a re-analysis of the deposited data

How the results depend on the processing

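The scaling mattered most. With library size alone the wild type comparison gave 37 miRNAs higher and 226 lower, the seed families 23 and 183, and the knockout comparison 60 and 202. The log2 differences of let-7a-1-3p and let-7c-2-3p then became -0.0569, let-7c-5p -0.33, miR-126a-3p -0.65, miR-141-3p -0.39, miR-219a-5p -0.18, miR-34b-5p -0.74, miR-381-3p -0.15, miR-451a -0.0403, miR-7b-3p -0.43 and miR-9-5p -0.0313. A test against 2-fold instead of 0 left 72 higher and 59 lower. Without the filter on low counts the wild type comparison gave 121 higher and 129 lower (48.4% of calls higher, beside 54.9%), and the difference between genotypes, 0 with the filter, gave 4 and 6. DESeq2's size factors, upper quartile factors, DESeq2, limma-voom and fits of all 12 or all 23 libraries gave 105 to 118 higher and 89 to 108 lower in wild type.

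Leaving out 1 library at a time gave 112 to 130 higher and 86 to 103 lower in wild type, 62 to 70 and 66 to 84 seed families, 98 to 124 and 97 to 112 in the knockouts, and 0 for the difference between genotypes. The median SD of the choroid plexus strands ranged from 0.189 (without cerebellum WT 3) to 1.24 in cerebellum and from 0.18 (without hippocampus WT 2) to 1.28 in hippocampus. Log2 differences that changed sign were those of miR-1298-5p (-0.97 to 0.16), miR-448-3p (-0.61 to 0.52), miR-1912-3p (-1.23 to 0.0112), miR-34c-5p (-0.67 to 0.25), miR-34b-5p (-0.36 to 0.47), miR-141-3p (-0.37 to 0.76) and miR-143-3p (-0.21 to 0.0861). None of these was called. The log2 difference of miR-34b-5p, which rounds to 0 as reported, was -0.027 with DESeq2's size factors, -0.0279 with DESeq2, -0.0367 with upper quartile factors, -0.12 without the filter, -0.0463 in the fit of all 23 libraries and -0.018 without both low libraries, and miR-126a-3p was -0.0469 without the filter. Apart from the stated values the causes were not tested. Of 1698 values for 100 named miRNAs, 1581 kept their direction and side of the threshold, 65 lost a call, 21 gained one and 31 changed sign.

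With the replicate number as a block, 111 miRNAs were higher and 93 lower in wild type, 61 and 75 seed families, and 116 and 111 miRNAs in the knockouts, with 0 for the difference between genotypes. The replicate block removed the calls of miR-204-5p and miR-449c-5p. The correlations, with 3 libraries a region, cannot decide on a pairing by number. The highest was between cerebellum WT 3 and hippocampus WT 2 (0.52).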
